A study of Homo sapiens with 8 samples.

Results

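The 36 genes described here encode the integrin subunits and the laminin chains found among 60659 genes counted in the human neuroblastoma line SK-N-SH. They were taken by gene symbol and comprise 18 integrin alpha subunits, 8 integrin beta subunits and 10 laminin chains. After removal of ribosomal RNA, total RNA was sequenced in 4 groups of 2 libraries, and every group received all-trans retinoic acid (ATRA, 10 µM) for 24 h. Parental cells with doxycycline (Dox) were the controls for cells that carried FLAG-tagged ZMYND8, a chromatin reader protein, in a Dox-inducible lentiviral vector and also received Dox. KD control cells were compared with cells that the labels call a ZMYND8 knockdown, and the labels of both these groups name no Dox. The methods describe lentiviral short hairpin RNA with puromycin doses for SH-SY5Y and neural stem cells, and name none for SK-N-SH. What the KD control cells carried is not given in the sources used here. The vector cells had been selected with G418 as a stable population, and the labels give no vector for the parental cells, so an effect of ZMYND8 and one of transduction or selection cannot be told apart.

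Integrins are receptors made of an alpha and a beta subunit that hold cells to the extracellular matrix and signal from it, and the alpha subunit largely sets which matrix protein is bound. Laminins are trimers of an alpha, a beta and a gamma chain and form the sheet of the basement membrane, to which several integrins bind. In the developing nervous system both families take part in neurite growth and cell migration, and in neuroblastoma lines high integrin and matrix expression is known as a feature of the mesenchymal rather than the adrenergic cell state.

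The 4 integrin alpha genes for collagen receptors, ITGA1, ITGA2, ITGA10 and ITGA11, were all lower with FLAG-ZMYND8, and ITGA8 was the member with the largest increase. The 250 bases before the transcription start of these 5 genes are shown so that the sequences of the group that fell can be read beside that of ITGA8. They come from RefSeq on GRCh38.p14, on the strand of the gene. Capitals mark the GC box (GGGCGG) and a TEAD motif (GGAATG), each on either strand.
ITGA1, chr5:52787666-52787915, plus strand: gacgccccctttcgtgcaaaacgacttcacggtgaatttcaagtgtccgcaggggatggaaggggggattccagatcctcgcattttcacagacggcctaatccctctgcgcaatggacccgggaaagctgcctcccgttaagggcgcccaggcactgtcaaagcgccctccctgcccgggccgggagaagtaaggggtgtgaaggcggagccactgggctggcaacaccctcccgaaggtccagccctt
ITGA2, chr5:52989102-52989351, plus strand: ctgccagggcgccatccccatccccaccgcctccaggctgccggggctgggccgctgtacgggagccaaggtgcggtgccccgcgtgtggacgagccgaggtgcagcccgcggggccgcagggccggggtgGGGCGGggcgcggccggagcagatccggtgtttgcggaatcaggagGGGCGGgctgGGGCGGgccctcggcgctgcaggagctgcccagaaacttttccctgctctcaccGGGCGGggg
ITGA10, chr1:145910051-145910300, minus strand: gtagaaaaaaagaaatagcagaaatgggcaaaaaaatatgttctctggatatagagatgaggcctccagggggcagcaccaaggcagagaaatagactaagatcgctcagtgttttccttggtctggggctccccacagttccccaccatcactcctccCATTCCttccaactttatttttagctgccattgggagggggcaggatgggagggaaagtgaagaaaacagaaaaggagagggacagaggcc
ITGA11, chr15:68432164-68432413, minus strand: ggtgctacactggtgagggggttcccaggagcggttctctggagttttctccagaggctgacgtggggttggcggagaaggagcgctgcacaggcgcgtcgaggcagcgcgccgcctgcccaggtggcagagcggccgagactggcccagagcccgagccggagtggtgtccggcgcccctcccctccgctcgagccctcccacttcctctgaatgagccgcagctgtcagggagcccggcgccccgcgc
ITGA8, chr10:15719923-15720172, minus strand: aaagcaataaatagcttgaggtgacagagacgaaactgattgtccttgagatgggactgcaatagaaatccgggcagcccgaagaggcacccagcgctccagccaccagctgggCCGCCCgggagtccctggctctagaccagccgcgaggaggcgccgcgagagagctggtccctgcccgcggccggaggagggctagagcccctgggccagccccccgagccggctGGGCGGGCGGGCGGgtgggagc

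The upstream stretches of ITGA2 and ITGA8 each held 4 GC boxes, with those of ITGA8 partly overlapping each other, those of ITGA1, ITGA10 and ITGA11 held 0, and only that of ITGA10 held the TEAD motif. Their G and C content was 48.4% for ITGA10, 62.0% for ITGA1, 68.0% for ITGA8, 71.2% for ITGA11 and 76.4% for ITGA2. In the longer RefSeq windows, of 250 bases before and 50 after the start, 25 of the 36 members matched with 32 starts. Of these 32 windows, 19 held a GC box against 45.0% of all 35116 windows, and 4 held the TEAD motif against 14.0%. The AP-1 motif TGANTCA was in 3 of the 32 (7.7% of all), the nuclear receptor half-site AGGTCA in 2 (13.8% of all), the E-box CANNTG in 19 (68.7% of all), TATAAA in 2 (11.5% of all) and the cyclic AMP element TGACGTCA in 0 (1.8% of all). Both strands were searched, and no motif contains another. The 4 collagen receptor alphas shared none of the motifs searched other than the E-box of ITGA1 and ITGA11. The 3 windows with the AP-1 motif belonged to ITGA5, LAMA3 and LAMB3, which were called lower with FLAG-ZMYND8. ITGA4, ITGA6, ITGB1, ITGB5 and LAMC1 were also called lower and held no AP-1 motif in any window. The count of 3 in 32 windows is near the share of all windows, and no motif was tested.

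Counts on genes totalled 38316523 to 56256979 per library. ZMYND8 itself rose from 3089 and 3612 counts in the parental libraries to 220691 and 182849 with FLAG-ZMYND8, a log2 fold change of 5.87 (SE 0.0596). It fell from 3128 and 3374 to 1641 and 1640 counts in the knockdown, a log2 fold change of -0.94 (SE 0.0556), a 1.91-fold decrease. Levels are given below as RPKM, reads per kilobase of exon and per 1e6 reads after TMM scaling over all 8 libraries, and changes as log2 fold changes with their standard errors (SE) from edgeR's quasi-likelihood test. A gene was called when its Benjamini-Hochberg adjusted p was below 0.05, its log2 fold change was at least 1 in either direction and its mean normalised count was above 20.

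The first comparison asked how integrin and laminin RNA differed between cells with FLAG-ZMYND8 and parental cells. Most members were lower with FLAG-ZMYND8, led by the collagen receptor subunits and LAMB3, while ITGA8, ITGA9, ITGA2B, LAMA1 and LAMA4 were higher. Of the 36 members, 32 had enough counts for the test and 30 had a mean above 20. Called lower were 15 members, against 6.84% of the 20835 genes tested, and called higher were 5, against 11.8%. By adjusted p alone, 21 were lower (29.1% of all genes tested) and 9 higher (31.7%), and ITGB2 and ITGB7 did not pass. The median log2 fold change of the 32 members was -0.99, beside 0.03 for all genes tested. The summed level of all members was 1105 and 1131 RPKM in the parental libraries and 397 and 387 RPKM with FLAG-ZMYND8.

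**Figure D1:**
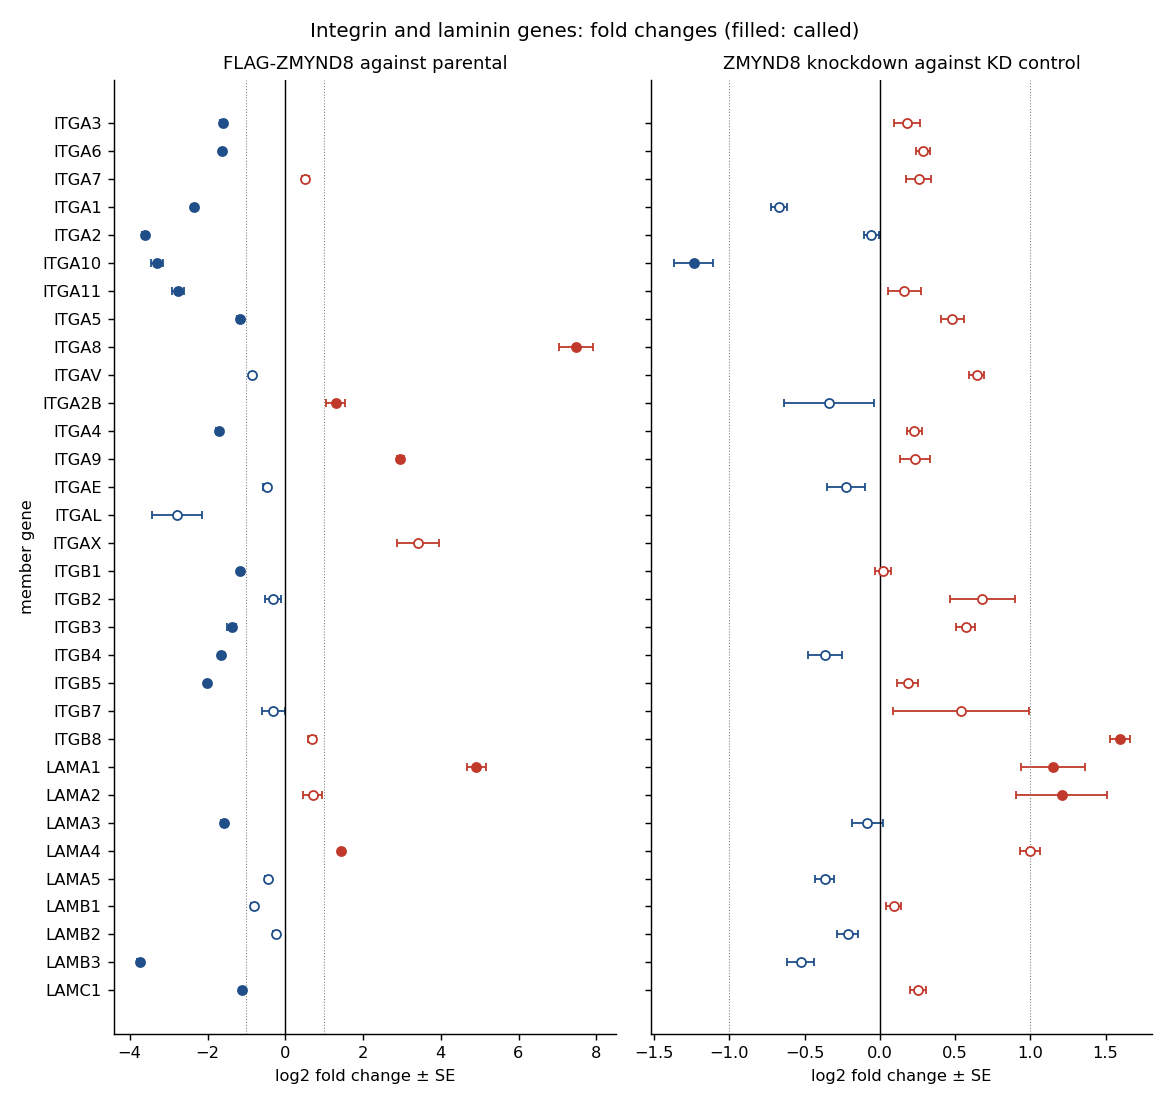
Log2 fold change (x axis) with its SE (bars) of each member gene tested, for FLAG-ZMYND8 against parental cells (left) and ZMYND8 knockdown against KD control cells (right), from 2 libraries per group. Filled points were called, red is higher, blue is lower, dotted lines mark a log2 fold change of 1 in either direction, and the x axes differ in scale. The left panel runs from -3.74 for LAMB3 to 7.48 for ITGA8, the right one from -1.24 for ITGA10 to 1.59 for ITGB8.

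The collagen receptor alphas, all 4 of which pair with ITGB1, fell together, with a median log2 fold change of -3.03. ITGA1 (chr5:52787916-52959209), a receptor for collagen and laminin, had 98042 and 116654 counts in the parental libraries and 23981 and 19479 with FLAG-ZMYND8, a log2 fold change of -2.35 (SE 0.0492, adjusted p = 8.40e-11). ITGA2 (chr5:52989340-53094779), the collagen receptor best known from platelets and epithelia, had 38305 and 46550 against 4282 and 2948 counts, a log2 fold change of -3.61 (SE 0.0787, adjusted p = 1.06e-10). These genes are neighbours on the same strand of chromosome 5 with 30.1 kb between them, and both were among the most abundant members in parental cells, where ITGA1 was at 124 and 122 RPKM and ITGA2 at 114 and 114 RPKM. ITGA10 (chr1:145891208-145910111), known from cartilage, fell from 571 and 815 to 71 and 73 counts, by 3.30 on the log2 scale (SE 0.15). ITGA11 (chr15:68296532-68432163), a receptor for fibrillar collagens on fibroblasts, fell from 322 and 410 to 57 and 54 counts, by 2.76 on the log2 scale (SE 0.154). The parental levels of the 4 genes ranged from under 1 RPKM for ITGA11 to over 100 for ITGA1. ITGA1 shares 5.8% of its exonic bases with PELO and RPL17P21 on its own strand and 8.1% with antisense genes, whose reads may be counted with it.

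Of the laminin receptor alphas, ITGA3 and ITGA6 fell and ITGA7 rose. ITGA3 (chr17:50055968-50090481), which joins cells to the laminins of epithelial basement membranes, fell from 69865 and 87528 to 31846 and 21716 counts, a log2 fold change of -1.61 (SE 0.0779, adjusted p = 2.86e-08). ITGA6 (chr2:172427354-172506459), the laminin receptor that pairs with ITGB1 or ITGB4, fell from 14323 and 16563 to 6113 and 4336 counts, a log2 fold change of -1.62 (SE 0.0682, adjusted p = 1.01e-08). ITGA7 (chr12:55684568-55716043), the laminin receptor of muscle, had 1066 and 1560 against 2004 and 1823 counts, and its log2 fold change of 0.51 (SE 0.0887, adjusted p = 5.32e-04) passed the test but not the fold threshold. The abundant pair thus went down by 3.06-fold and 3.08-fold while the less abundant ITGA7 moved the other way.

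The alphas that read the RGD tripeptide in fibronectin and vitronectin moved in both directions. ITGA5 (chr12:54395261-54419266), the fibronectin receptor subunit, fell from 8383 and 10827 to 5130 and 3687 counts, a log2 fold change of -1.17 (SE 0.0667, adjusted p = 1.03e-07). ITGAV (chr2:186590056-186680901), which pairs with ITGB1, ITGB3, ITGB5, ITGB6 and ITGB8, had 17311 and 21359 against 12093 and 9849 counts and fell by 0.86 on the log2 scale (SE 0.0468), short of the fold threshold. ITGA8 (chr10:15513954-15719922), known for binding nephronectin in kidney development, went from 2 and 0 counts to 216 and 198 counts. It was all but undetected in parental cells and present, at a low level of 0.549 and 0.615 RPKM, in both FLAG-ZMYND8 libraries. The ratio of its scaled counts was 199-fold with an exact 95% interval of 54.8 to 1651 for counting error only, and the fitted log2 fold change of 7.48 (SE 0.438, adjusted p = 1.28e-07) depends on how the 2 parental counts are treated. ITGA2B (chr17:44372180-44389649), the platelet fibrinogen receptor, rose from 34 and 49 to 96 and 112 counts, a log2 fold change of 1.30 (SE 0.248, adjusted p = 0.00103).

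The alpha4 and alpha9 subunits, which bind VCAM1, fibronectin, tenascin and osteopontin, moved in opposite directions. ITGA4 (chr2:181457202-181538940) fell from 27840 and 32241 to 11271 and 7790 counts, a log2 fold change of -1.72 (SE 0.0746, adjusted p = 1.30e-08). ITGA9 (chr3:37452115-37823507) rose from 200 and 264 to 2067 and 1665 counts, a log2 fold change of 2.96 (SE 0.0805, adjusted p = 4.67e-10). With FLAG-ZMYND8, ITGA4 at 19.7 and 16.6 RPKM still stood above ITGA9 at 4.65 and 4.57 RPKM. On the strand opposite ITGA4, CERKL overlaps 14.8% of its exonic bases, and ITGA9-AS1 overlaps 9.2% of those of ITGA9.

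The leukocyte alphas other than ITGAE were scarce in all libraries. ITGAE, which binds E-cadherin when paired with ITGB7, had 599 and 811 against 579 and 462 counts and fell by 0.48 on the log2 scale (SE 0.0931). ITGAX, the alpha of a complement receptor, had 2 and 3 against 25 and 32 counts, a ratio whose exact 95% counting interval ran from 4.44 to 35.1-fold (adjusted p = 2.64e-04), and ITGAL, the alpha of the lymphocyte adhesion receptor for ICAM1, had 14 and 21 against 1 and 4 counts (adjusted p = 0.0033). Both had means of 20 or less and so could not be called. ITGAM and ITGAD had at most 16 and 2 counts in any library of this comparison and were not tested. Of 6 leukocyte markers 2 were tested, and the monocyte marker CD14 was higher with FLAG-ZMYND8 (log2 fold change 1.30 (SE 0.489, adjusted p = 0.0406)) and the macrophage receptor gene CSF1R lower (-2.57 (SE 0.371, adjusted p = 1.51e-04)). The markers summed to 0.444 and 0.355 RPKM in the parental libraries and 0.360 and 0.354 RPKM with FLAG-ZMYND8, while PTPRC and CD3E, which define leukocytes and their T lineage, had at most 2 and 3 counts in any of the 8 libraries. The part of leukocyte RNA in these values was not tested.

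Of the 8 beta subunits, 4 were called lower and 0 higher. ITGB1 (chr10:32887273-33005792), the common partner of most alphas here, fell from 65621 and 79286 to 37599 and 29454 counts, a log2 fold change of -1.16 (SE 0.0493, adjusted p = 1.08e-08). ITGB5 (chr3:124761948-124901418), the vitronectin receptor subunit that pairs with ITGAV, fell from 45839 and 59975 to 14713 and 12348 counts, a log2 fold change of -2.01 (SE 0.0553, adjusted p = 5.09e-10). ITGB5 was the most abundant beta in parental cells at 166 and 178 RPKM, above ITGB1 at 106 and 105 RPKM, and the order was the reverse with FLAG-ZMYND8, at 42 and 43.1 against 48 and 46 RPKM. ITGB4 (chr17:75721328-75757818), which joins ITGA6 in hemidesmosomes, fell from 1387 and 1717 to 550 and 472 counts, by 1.65 on the log2 scale (SE 0.0716). ITGB3 (chr17:47253827-47313743), which joins ITGAV or ITGA2B, fell from 2235 and 2596 to 1210 and 728 counts, by 1.38 on the log2 scale (SE 0.111). Its value is uncertain, because 35.7% of its exonic bases are shared with the overlapping gene ENSG00000259753 on the same strand.

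The remaining betas moved little or were scarce. ITGB8 (chr7:20330702-20415754), which with ITGAV activates latent TGF-beta, had 490 and 613 against 1087 and 749 counts and a log2 fold change of 0.68 (SE 0.0982, adjusted p = 1.47e-04). It was the only beta subunit that passed the test with a higher level. ITGB2, the shared beta of the leukocyte integrins, had 71 and 88 against 78 and 54 counts (adjusted p = 0.212) and ITGB7, another leukocyte beta, had 26 and 45 against 35 and 24 counts (adjusted p = 0.406). ZNF740 overlaps 42.3% of the exonic bases of ITGB7 on the other strand. ITGB6, the epithelial partner of ITGAV, had at most 17 counts and was not tested.

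**Figure D2:**
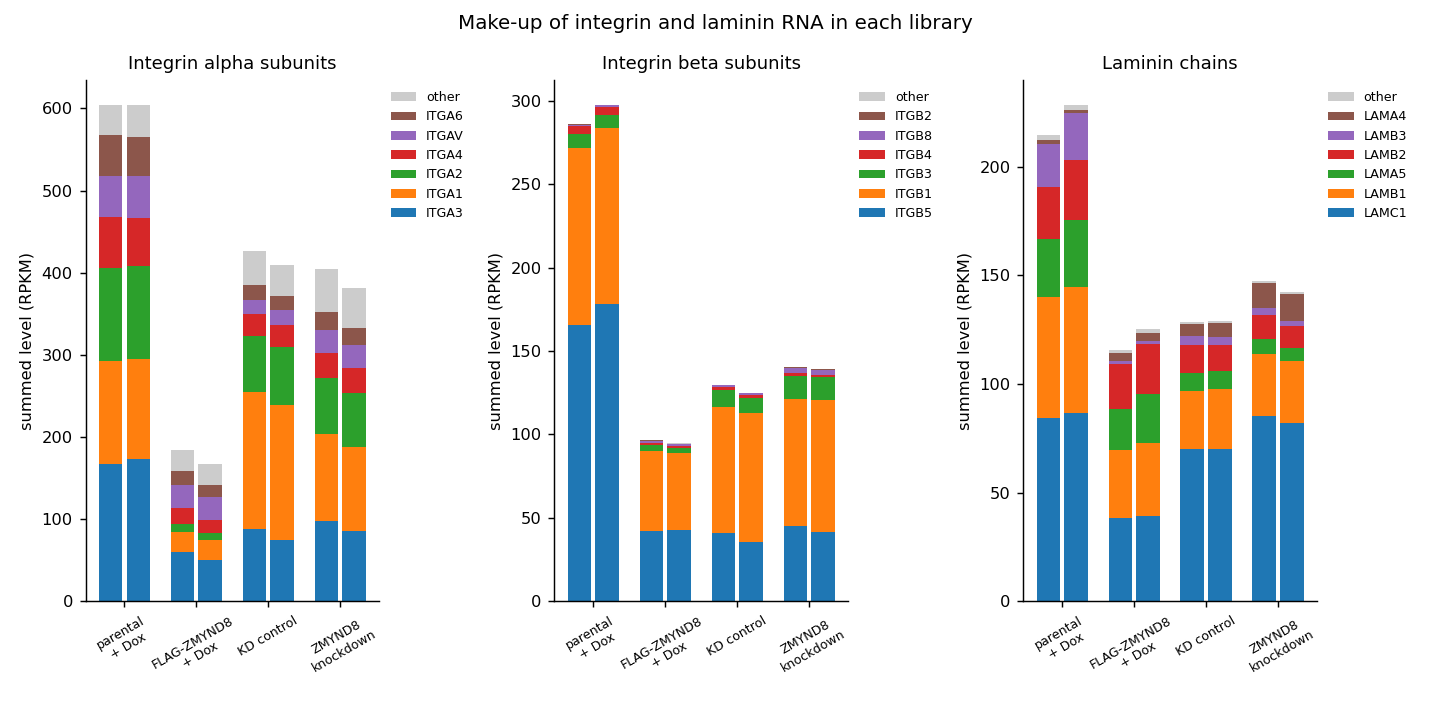
Level in RPKM (y axis) of the integrin alpha subunits, integrin beta subunits and laminin chains, stacked by gene for each of the 8 libraries, with 2 bars per group and the 6 most abundant genes of each family in colour. The bars of FLAG-ZMYND8 cells are below those of parental cells in all 3 panels. ITGA3 leads the alphas in both of these groups, and ITGA1 leads them in KD control and knockdown cells.

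The make-up of the alpha subunits differed between the groups, which was not tested. The collagen receptor alphas made up 39.97% and 39.53% of the summed alpha level in the parental libraries and 18.6% and 19.6% with FLAG-ZMYND8. ITGA3 led the alphas in both groups, and ITGAV went from 8.21% and 8.31% of the alpha level to second place, between 14.8% and 16.3%. These shares are within-family descriptions of RNA and do not count receptors on the cell surface.

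Among the laminin chains, LAMA1 and LAMA4 rose and LAMA3, LAMB3 and LAMC1 fell. LAMA1 (chr18:6941742-7117797), the alpha chain of the early embryonic laminin, rose from 9 and 7 to 265 and 240 counts, a log2 fold change of 4.92 (SE 0.251, adjusted p = 4.43e-08). LAMA4 (chr6:112107931-112254939), the alpha chain of vessels and mesenchyme, rose from 736 and 869 to 2415 and 2075 counts, a log2 fold change of 1.44 (SE 0.0613, adjusted p = 1.11e-08). LAMA1, of whose exonic bases antisense genes overlap 11.1%, remained a trace transcript, at 0.311 and 0.344 RPKM, while LAMA4 reached 3.75 and 3.93 RPKM. LAMA2 (chr6:128883138-129516566), the alpha chain of muscle and Schwann cell laminin, had 44 and 38 against 74 and 65 counts, a log2 fold change of 0.71 (SE 0.251, adjusted p = 0.032) that stayed under the fold threshold. LAMA5 (chr20:62307955-62367312), the widespread alpha chain of mature basement membranes, had 16255 and 22487 against 14639 and 14237 counts and fell by 0.45 on the log2 scale (SE 0.0837). It stayed the most abundant alpha chain in both groups.

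LAMA3 and LAMB3 belong to the same epithelial laminin, and both fell. LAMA3 (chr18:23689453-23956222) fell from 1552 and 1839 to 617 and 547 counts, a log2 fold change of -1.59 (SE 0.071, adjusted p = 1.60e-08). LAMB3 (chr1:209614870-209652425) fell from 3934 and 5212 to 390 and 315 counts, a log2 fold change of -3.74 (SE 0.0704, adjusted p = 5.07e-11), the largest decrease of any member. LAMB1 (chr7:107923799-108003213) and LAMC1 (chr1:183023420-183145592) are the beta and gamma chains of most laminins. LAMC1 fell from 30263 and 37788 to 17527 and 14639 counts, a log2 fold change of -1.12 (SE 0.0481, adjusted p = 1.16e-08). LAMB1 had 43948 and 56002 against 31038 and 27275 counts and fell by 0.81 on the log2 scale (SE 0.0543), under the fold threshold. LAMB2, the beta chain of the neuromuscular synapse and the kidney filter, had 6994 and 9808 against 7571 and 6914 counts and a log2 fold change of -0.24 (SE 0.0748, adjusted p = 0.0162), and its direction turned to 0.01 (adjusted p = 0.892) when libraries were scaled by total counts. LAMC3 had 0 and 0 counts in the parental libraries and 10 and 21 with FLAG-ZMYND8, too few for the test. The laminin chains therefore did not share a direction, and 6 of 9 tested were lower and 3 higher by adjusted p.

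**Figure D3:**
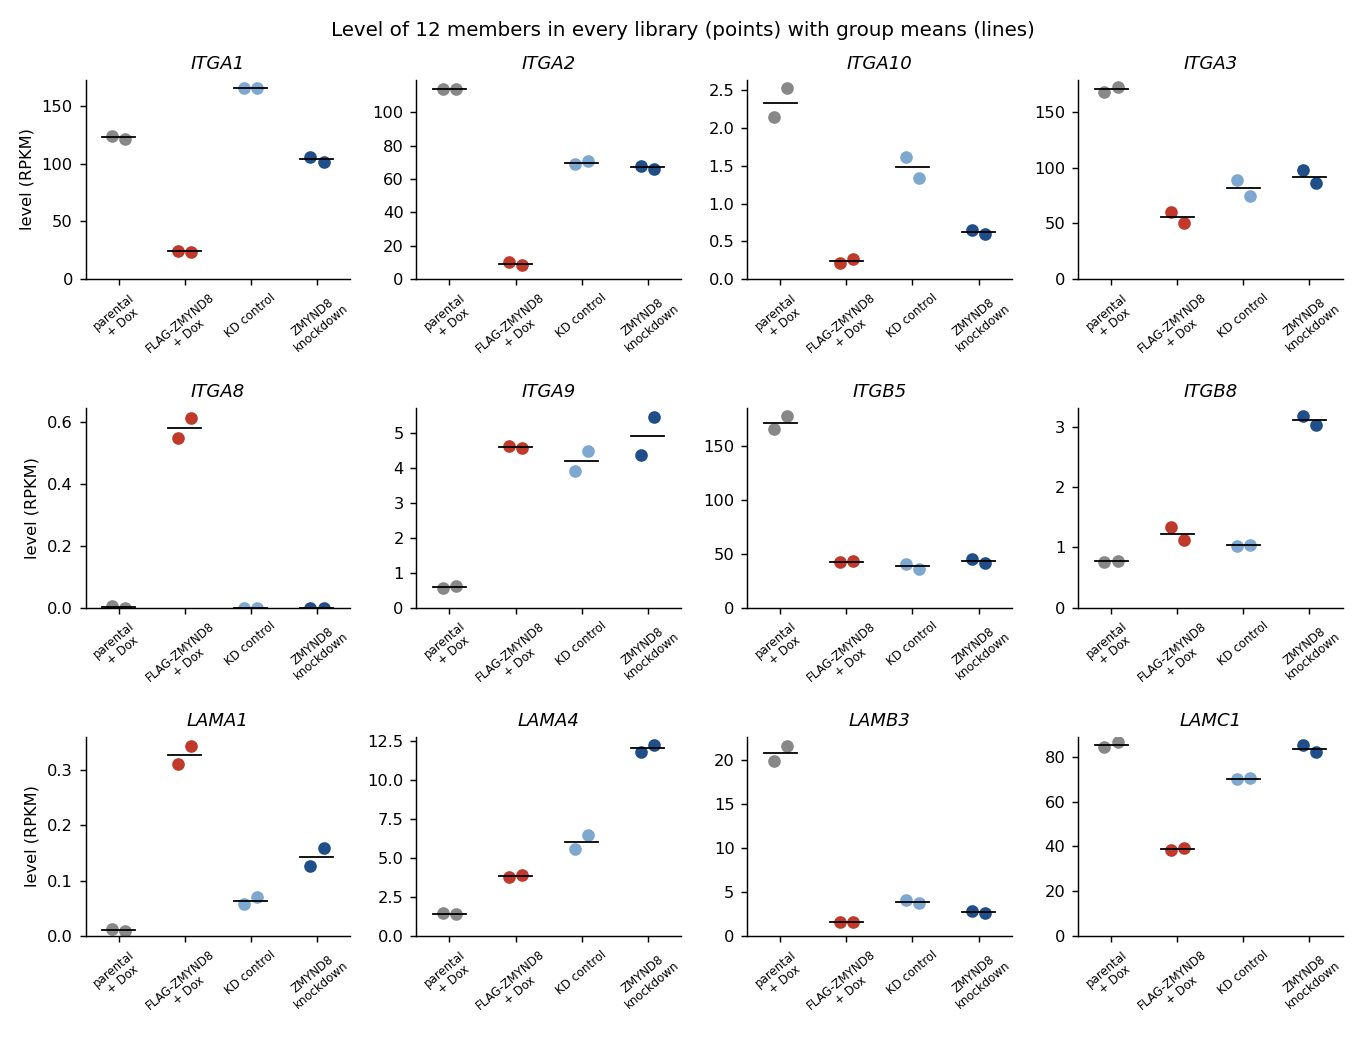
Level in RPKM (y axis, from 0) of 12 members in each of the 8 libraries (points) with the mean of each group (lines). ITGA8 is present only in the FLAG-ZMYND8 libraries beyond 2 parental counts, ITGB8 and LAMA4 are highest in the knockdown, and parental cells stand apart from the other 3 groups in ITGA9 and ITGB5.

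The scaling of the libraries bears on the genes near the fold threshold. With scaling by total counts, under which the median of all genes was 0.29 in place of 0.03, ITGA5, ITGB1 and LAMC1 were no longer called, and 12 members were called lower and 5 higher.

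Cell state markers moved with the members. The adrenergic neuroblastoma markers were higher with FLAG-ZMYND8 for 11 of 11 genes tested by adjusted p, and their summed level went from 134 and 134 RPKM to 479.6 and 511 RPKM. Of the 12 mesenchymal markers found, 11 were lower and TWIST1, a mesenchymal transcription factor, was higher with a log2 fold change of 1.31, and the summed level went from 887 and 894 RPKM to 498 and 449 RPKM. Over all genes tested, 31.7% were higher and 29.1% lower by adjusted p. The most abundant adrenergic markers were STMN2, HAND2, PHOX2A and GATA2, and the most abundant mesenchymal ones were VIM, PRRX1, TWIST1 and CCN2. TH, the enzyme that opens catecholamine synthesis, had at most 5 counts. In bulk RNA, fewer mesenchymal cells and less RNA per cell cannot be told apart, and the part of either in the members' result was not tested.

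The labels call the cells epithelial, and the epithelial markers CDH1, KRT5 and KRT14 had at most 12, 1 and 3 counts. EPCAM was between 0.213 and 0.416 RPKM, whereas KRT18 was between 47.8 and 132 RPKM and KRT8 between 2.90 and 11.1 RPKM. KRT18 and KRT8 fell with FLAG-ZMYND8, with log2 fold changes of -1.15 and -1.81. Among the other leukocyte markers, the highest level was 0.410 RPKM for CSF1R, followed by CD14 at up to 0.248 and LYZ at up to 0.156. Endothelial markers reached 0.478 RPKM for KDR, 0.250 for PECAM1, 0.107 for VWF and 0.00628 for CDH5. Schwann cell and melanocyte markers reached 1.84 RPKM for MITF, 1.31 for S100B and 1.04 for PMEL, with SOX10 at no more than 1 count. Muscle markers stayed at or below 0.203 RPKM for MYH3, 0.121 for DES, 0.0928 for MYOD1 and 0.0292 for CKM.

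Other genes of the adhesion system were mostly lower with FLAG-ZMYND8 as well. Of 78 genes in 4 lists of matrix and adhesion genes, 72 were tested, 30 were called lower and 5 higher. Over all genes tested, 6.84% were called lower and 11.8% higher. Of 13 other basement membrane genes tested, 4 were called lower and 2 higher, with a median log2 fold change of -0.86. The matrix collagen COL15A1 had a log2 fold change of -3.75 (SE 0.169) and COL18A1, the source of endostatin, one of -1.80 (SE 0.058), while COL4A5, a chain of basement membrane collagen, had 4.19 (SE 0.49) and NTN4, a netrin that binds laminin, 3.33 (SE 0.13). AGRN and COL4A4 did not pass the test.

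Of 16 other integrin ligands tested, 12 were called lower and 2 higher, with a median of -1.73. SPP1, or osteopontin, had a log2 fold change of -3.42 (SE 0.109) and THBS1, or thrombospondin, one of -2.44 (SE 0.0642). The brain tenascin TNR rose by 5.50 on the log2 scale (SE 0.136) and VTN, or vitronectin, by 3.95 (SE 0.129). The ligands thus held the largest share of called genes among the 4 lists.

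Of 29 activators and adaptors of adhesion sites tested, 12 were called lower and 1 higher, with a median of -0.90. The largest decreases were in the talin-binding protein KANK1 with a log2 fold change of -2.72, the tensin TNS3 with -2.50, the docking protein NEDD9 with -2.41 and zyxin (ZYX) with -2.17, with SE from 0.0587 to 0.0906. Of 14 other laminin receptors and integrin partners tested, 2 were called lower, the hyaluronan receptor CD44 with -2.55 (SE 0.0995) and the syndecan SDC4 with -2.24 (SE 0.0747), and 0 higher. The dystroglycan gene DAG1, the main laminin receptor outside the integrins, had a log2 fold change of -0.34 (SE 0.049, adjusted p = 1.41e-04), which passed the test below the fold threshold.

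**Figure D4:**
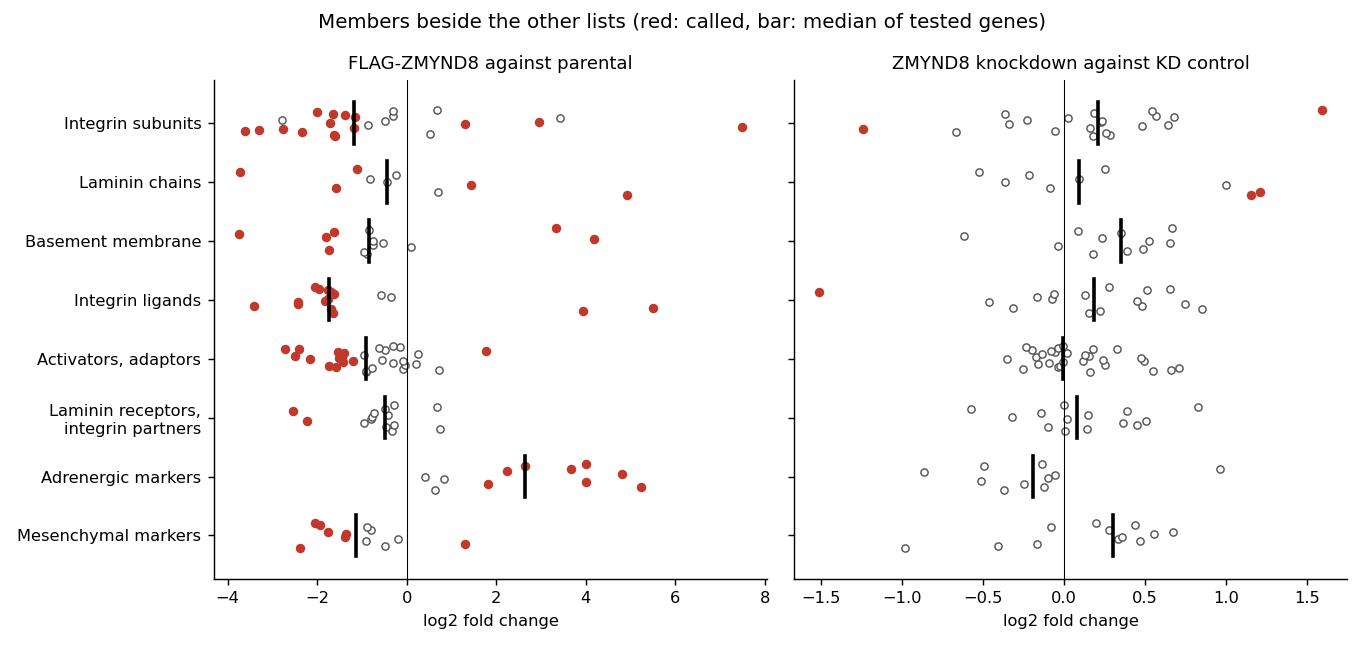
Log2 fold change (x axis) of each tested gene of the members and of 6 other lists (rows), for FLAG-ZMYND8 against parental cells (left) and knockdown against KD control (right). Red points were called, open points were not, the black bar is the median of the tested genes, and the x axes differ in scale. The medians of the integrins, the laminins and the 4 adhesion lists lie below 0 on the left, at -1.73 for the ligands, and between -0.01 and 0.35 on the right.

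The second comparison asked how the members differed between cells with ZMYND8 knockdown and KD control cells. The log2 fold changes lay between -1.24 and 1.59, with ITGB8, LAMA1 and LAMA2 called higher and ITGA10 called lower. LAMA4, ITGAV, ITGB3 and ITGA1 passed the test with adjusted p from 5.57e-06 to 9.15e-05 but stayed under the fold threshold. Of the 36 members, 29 were tested. Called higher were 3, against 1.36% of the 19789 genes tested, and 1 was called lower, against 0.596%. By adjusted p alone, 12 were higher (13.4% of all genes tested) and 6 lower (10.8%), and 11 did not pass. The median log2 fold change of the 29 members was 0.19, beside -0.01 for all genes tested, and the summed level of all members was 684 and 663 RPKM in KD control cells and 693 and 663 RPKM with the knockdown. Not tested were ITGA8 and ITGAX, with 0 counts in all 4 libraries, which allows at most 3 counts in each, and ITGAD, ITGAL, ITGAM, ITGB6 and LAMC3, with at most 1, 8, 7, 14 and 2 counts.

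ITGB8 went from 820 and 876 counts in KD control cells to 2539 and 2405 with the knockdown, a log2 fold change of 1.59 (SE 0.0661, adjusted p = 3.62e-07). Its level went from 1.03 and 1.04 to 3.2 and 3.05 RPKM, the highest of the 4 groups. ITGAV, its partner, rose from 7593 and 8184 to 12063 and 11754 counts, a log2 fold change of 0.64 (SE 0.0495, adjusted p = 1.05e-05), short of the fold threshold. ITGB3, another partner of ITGAV, rose from 3319 and 3130 to 4728 and 4527 counts (0.57, SE 0.0603), while ITGB5 had 13985 and 12778 against 15353 and 14117 counts (0.19 (SE 0.0699, adjusted p = 0.0794)) and did not pass. Of the partners of ITGAV tested, ITGB3 and ITGB8 thus passed the test and ITGB5 and ITGB1 (adjusted p = 0.81) did not.

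LAMA1 rose from 48 and 62 to 105 and 131 counts, a log2 fold change of 1.15 (SE 0.211, adjusted p = 0.00275). LAMA2 rose from 15 and 23 to 43 and 42 counts, a log2 fold change of 1.21 (SE 0.303, adjusted p = 0.0154). LAMA4 rose from 3515 and 4292 to 7399 and 7629 counts, and its log2 fold change of 0.996 (SE 0.0686, adjusted p = 5.57e-06) lay just under the fold threshold. The results for LAMA1 and LAMA2 rest on few reads. LAMA2 was not called without KD control replicate 1 (adjusted p = 0.114) and got no adjusted p from DESeq2, and the log2 fold change of LAMA1 was 0.98 without knockdown replicate 2.

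Of the other laminin chains, LAMC1 rose from 31178 and 32869 to 37640 and 36063 counts (0.25, SE 0.052) and LAMB3 fell from 1001 and 964 to 694 and 626 counts (-0.53, SE 0.0902). LAMA5 fell from 6368 and 6624 to 5203 and 4533 counts (-0.37, SE 0.0644) and LAMB2 from 4520 and 4431 to 3994 and 3468 counts (-0.21, SE 0.0692). These 4 genes passed the test at log2 fold changes below 1. LAMB1 had 25961 and 28276 against 28045 and 27808 counts and LAMA3 had 627 and 613 against 608 and 523 counts, and neither passed (adjusted p = 0.228 and 0.609).

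The collagen receptor alphas split in the knockdown. ITGA10 fell from 532 and 462 to 212 and 196 counts, a log2 fold change of -1.24 (SE 0.132, adjusted p = 9.71e-05), and ITGA1 fell from 161590 and 169716 to 102922 and 98371 counts, a log2 fold change of -0.67 (SE 0.0552, adjusted p = 1.67e-05). ITGA2, the neighbour of ITGA1, had 28676 and 30826 against 28046 and 27216 counts, a log2 fold change of -0.06 (SE 0.0513, adjusted p = 0.472), and ITGA11 had 452 and 433 against 506 and 451 counts (0.16 (SE 0.109, adjusted p = 0.327)). ITGA1 and ITGA10 thus passed the test, whereas ITGA2 and ITGA11 did not. ITGA1 was the most abundant alpha in all 4 libraries, but its share of the alpha level went from 38.9% and 40.4% to 26.2% and 26.7%.

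The other alphas that passed the test rose. ITGA5 rose from 10975 and 10061 to 15071 and 13366 counts (0.48, SE 0.0745) and ITGA6 from 6249 and 6422 to 7546 and 7376 counts (0.29, SE 0.0481). ITGA7 rose from 1861 and 1695 to 2175 and 1940 counts (0.26, SE 0.0817) and ITGA4 from 14538 and 15757 to 17257 and 17027 counts (0.23, SE 0.0499). All 4 log2 fold changes were under 0.5. ITGA3 had 45703 and 40273 against 50370 and 43817 counts, ITGA9 1700 and 2050 against 1894 and 2358, ITGAE 409 and 401 against 302 and 367 and ITGA2B 36 and 36 against 22 and 33, with adjusted p = 0.168, 0.123, 0.228 and 0.462.

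Of the other betas, ITGB4 fell from 690 and 672 to 566 and 457 counts (-0.36 (SE 0.114, adjusted p = 0.0412)) and ITGB2 rose from 48 and 54 to 71 and 87 counts (0.68 (SE 0.217, adjusted p = 0.044)), neither under every alternative. ITGB1 had 57832 and 62461 against 57927 and 60081 counts, a log2 fold change of 0.02 (SE 0.0534, adjusted p = 0.81), and ITGB7 had 21 and 13 against 33 and 15 counts (adjusted p = 0.434). The common beta subunit thus showed no difference that the test could detect, and its log2 fold change was smaller than its SE.

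Of the 4 lists of other adhesion genes, 70 genes were tested in the knockdown, 1 was called lower and 0 higher. Over all genes tested, 0.596% were called lower and 1.36% higher. The gene called was POSTN, or periostin, an integrin ligand, with a log2 fold change of -1.51 (SE 0.159, adjusted p = 9.04e-05). By adjusted p, 8 of 11 basement membrane genes tested were higher and 0 lower, among them COL4A1 and COL4A2, the main chains of basement membrane collagen, at 0.65 and 0.53. Of the integrin ligands 6 were higher and 2 lower of 16, and of the activators and adaptors 6 and 2 of 29. Of the laminin receptors and partners the counts were 5 and 1 of 14. By adjusted p, 13.4% of all genes tested in the knockdown were higher and 10.8% lower, so several of these counts are near those shares. The adrenergic markers summed to 426 and 456 RPKM in KD control cells and 341 and 398 RPKM with the knockdown, with 5 of 10 tested lower by adjusted p and 0 higher. The mesenchymal markers summed to 534 and 518 against 637 and 622 RPKM, with 7 of 12 higher and 2 lower, and the part of these markers in the members' changes was not tested.

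A further test, over all 8 libraries, compared the effect of FLAG-ZMYND8 with that of the knockdown, as the log2 fold change with FLAG-ZMYND8 minus that in the knockdown. It was called for 20 members, 17 with a negative difference (7.66% of the 22619 genes tested) and 3 with a positive one (11.1%). All 4 collagen receptor alphas were among the 17, with ITGA2 at -3.56 (SE 0.0958, adjusted p = 7.71e-13) and ITGA1 at -1.69 (SE 0.0721, adjusted p = 7.31e-11), and so were ITGB1, ITGB3, ITGB4, ITGB5, LAMA3, LAMB3 and LAMC1. The 3 positive ones were ITGA9, ITGA2B and LAMA1. No difference is given for ITGA8 and ITGAX, which had 0 counts in the KD control and knockdown libraries, or for LAMC3, which had 0 in the parental libraries. A fold between such groups has no defined value.

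Some members changed in the same direction in both comparisons. Of 29 members tested in both, 17 had an adjusted p below 0.05 in both. Higher in both were 5 (ITGA7, ITGB8, LAMA1, LAMA2 and LAMA4), against 2.9% of the 18504 genes tested in both. Lower in both were 6 (ITGA1, ITGA10, ITGB4, LAMA5, LAMB2 and LAMB3), against 4.42%. Lower with FLAG-ZMYND8 and higher in the knockdown were 6 (ITGA4, ITGA5, ITGA6, ITGAV, ITGB3 and LAMC1), against 7.86%, and the reverse was seen in 0, against 3.9%. Of the 11 members with the same direction, ITGA1, ITGA10, ITGB8, LAMA1, LAMA4 and LAMB3 passed under every alternative run in both comparisons. The others did not: in the knockdown the adjusted p rose to as much as 0.322 for ITGA7, 0.285 for LAMB2, 0.273 for ITGB4 and 0.114 for LAMA2, and with FLAG-ZMYND8 to as much as 0.892 for LAMB2, 0.23 for LAMA2 and 0.0541 for LAMA5. For LAMA2, LAMA5, LAMB2 and ITGA7 the difference between the effects did not pass the test, at -0.51 (SE 0.395, adjusted p = 0.315), -0.09 (SE 0.118, adjusted p = 0.578), -0.03 (SE 0.112, adjusted p = 0.835) and 0.25 (SE 0.131, adjusted p = 0.134), and these intervals still leave room for unequal effects. The comparisons used separate controls.

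Those controls were not alike in the members. For 29 members with counts in both, the KD control level was on the same side of the parental level as that of FLAG-ZMYND8 in 24, against 62.2% of 17541 genes compared in this way, and 27 did not overlap between the 2 control groups, against 87% of those genes. Of the 19 of these members called with FLAG-ZMYND8, 15 were on that side. On the log2 scale, 10 of the 19 lay nearer to the FLAG-ZMYND8 level than to the parental one. The share over all called genes was not computed for either count. Both counts use the same parental libraries as the calls, so they are description only. The members' counts of libraries that did not overlap were thus close to the share over all genes. ITGA9 was at 0.593 ± 0.0343 RPKM (SD, n = 2) in parental cells, 4.61 ± 0.0503 with FLAG-ZMYND8, 4.2 ± 0.402 in KD controls and 4.92 ± 0.779 in the knockdown. ITGB5 was at 172 ± 8.85, 42.5 ± 0.77, 38.1 ± 3.82 and 43.3 ± 2.4 RPKM in the same order. In both genes the parental cells stood alone, and the other 3 groups lay close together. ITGA1 gave the opposite picture, at 123 ± 1.92, 24 ± 0.12, 166 ± 0.297 and 104 ± 2.93 RPKM, with the FLAG-ZMYND8 cells alone at the bottom. The summed adrenergic markers were also higher in KD controls than in parental cells (426 and 456 against 134 and 134 RPKM). The parental controls received Dox, whereas the KD control labels name none. The labels do not say whether the control groups were grown or sequenced together. A difference of treatment and one of batch therefore cannot be told apart, and no test was made between the control groups.

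Ordered by mean level, the alphas in parental cells ran ITGA3, ITGA1, ITGA2 and ITGA4, followed by ITGAV and ITGA6, which changed places between the 2 libraries. With FLAG-ZMYND8 the order was ITGA3, ITGAV, ITGA1 and ITGA4, and in both KD control and knockdown cells it was ITGA1, ITGA3 and ITGA2. ITGB1 led the betas in every group but the parental one. LAMC1 was the most abundant laminin chain in all 8 libraries, with LAMB1 second. ITGA3 was at 170.3 ± 3.55, 55.4 ± 7.11, 81.5 ± 10.2 and 92 ± 8.7 RPKM (SD, n = 2) in parental, FLAG-ZMYND8, KD control and knockdown cells, and the KD control and knockdown values overlapped. LAMA4 was at 1.42 ± 0.03, 3.84 ± 0.133, 6.03 ± 0.63 and 12 ± 0.306 RPKM in the same order.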

How the data were processed

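RNA-seq was made from 8 libraries of rRNA-depleted total RNA, which the labels call 2 biological replicates for each of 4 groups. The authors trimmed reads (Trim_Galore, Phred scores below 25 removed), aligned them with Hisat2 to GRCh38 and obtained gene counts from featureCounts on GENCODE 28 as the methods state, and deposited raw counts, one whole number per gene and library. The strand setting of the counting is not given in the sources used here, so reads of overlapping genes may be shared. Of the table's lines, 3 that hold a broken gene were left out, which leaves 60659 genes. Coordinates on GRCh38, exon lengths and overlaps are those of the count table, and symbols came from GENCODE 44. Libraries held 38316523 to 56256979 counts. Replicates differed by more than counting noise (chi-square per degree of freedom 6.05 to 8.86). The 4 libraries of a comparison were fitted together, and all 8 libraries for the difference of effects, with edgeR 4.0.16 (filterByExpr, TMM, two-sided quasi-likelihood test, Benjamini-Hochberg over all genes tested, R 4.3.3). Thresholds follow the methods, with the adjusted p in place of p. Intervals and floors cover counting error only. The members and the other gene lists were chosen with earlier results of these data known. Every member is named, with counts in every library where its mean was above 20. From the adhesion lists the counts called and up to 4 called genes of largest change are named, and from each marker list up to 4 with the highest level per kilobase, and some marker genes are not reported here. COL4A1, COL4A2, AGRN, COL4A4 and DAG1 were added after their values were seen. On simulated data with 200 changed genes, the fit called 200 of them and 4 unchanged genes of 20596 in the overexpression comparison. It called 200 and 2 of 19737 in the knockdown comparison, and 198 and 13 of 21670 for the difference. The planted changes were 2 on the log2 scale in either direction, in well-counted genes at a dispersion of 0.03. They therefore do not cover scarce genes or changes near the fold threshold. The alternatives were other normalizations, DESeq2 1.42.0, other filters and thresholds, all 8 libraries in 1 fit, a replicate block, gene length and GC corrections (the latter chosen after seeing the data) and each library left out.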

Additional observations from a re-analysis of the deposited data

Results flagged for a closer look

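For 20 members the effect of FLAG-ZMYND8 and that of the knockdown differed by a test of the difference itself (edgeR over all 8 libraries, called as above). The negative differences, as log2 fold changes with FLAG-ZMYND8 minus those in the knockdown, were -3.56 for ITGA2, -3.22 for LAMB3, -2.93 for ITGA11, -2.20 for ITGB5 and -2.06 for ITGA10. They were -1.96 for ITGB3, -1.95 for ITGA4, -1.91 for ITGA6, -1.80 for ITGA3 and -1.69 for ITGA1. The remaining ones were -1.66 for ITGA5, -1.51 for ITGAV, -1.51 for LAMA3, -1.38 for LAMC1, -1.29 for ITGB4, -1.19 for ITGB1 and -1.01 for ITGB2. The positive ones were 3.76 for LAMA1, 2.72 for ITGA9 and 1.63 for ITGA2B. ITGAV and ITGB2 were called here although neither was called in either comparison alone. The treatments differ in kind, and FLAG-ZMYND8 moved ZMYND8 RNA by 5.87 on the log2 scale against -0.94 in the knockdown, so the differences are not a measure per unit of ZMYND8. Groups of 2 libraries are too small to look for single outlying samples.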

How the results depend on the processing

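The counts of members called kept within 1.5 times of the main counts (5 higher and 15 lower with FLAG-ZMYND8, 3 higher and 1 lower in the knockdown) under most alternatives. With no fold threshold 8 members were called higher with FLAG-ZMYND8, and 12 higher and 6 lower in the knockdown, as fewer conditions were set. With a mean above 100, 1 member was called higher in the knockdown, since LAMA1 and LAMA2 have fewer reads. The median over members with FLAG-ZMYND8 (-0.99) moved to -0.92 with upper quartile normalization, -0.74 with total counts, -0.85 with DESeq2, -0.85 with no filter on low counts and -0.87 with all 8 libraries in 1 fit, and ran from -0.98 to -0.82 with 1 library left out. In the knockdown the median (0.19) ran from 0.085 to 0.25 with 1 library left out. LAMB2 with FLAG-ZMYND8 turned from -0.24 to 0.012 with total counts. Causes were not tested. Leaving out parental replicate 1 added ITGAX to the calls, and LAMA4 was called in the knockdown without KD control replicate 2, without knockdown replicate 1 or without the filter. The replicate block gave the same 5, 15, 3, 1 and 20 calls, and the replicate numbers did not pair the samples (correlations of 0.0097 and -0.0111). Precision is limited by 2 libraries per group and, for ITGAX, ITGAL and LAMC3, by depth.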
